A study of Mus musculus with 19 samples.

Results

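Zonation of the mouse liver was examined through 10 marker genes in bulk RNA-seq of whole liver. The members were 8 pericentral genes that respond to Wnt signalling (Glul, Oat, Slc1a2, Rhbg, Lgr5, Axin2, Tbx3 and Lect2) and 2 periportal genes (Hal and Gls2), taken by symbol from the 55836 genes of the deposited table. All 10 were listed, and all 10 were among the 13597 genes that passed the filter on low counts. Livers came from male wild-type C57BL/6 mice, 8 weeks old at purchase, that were kept on diet and daily gavage for 8 weeks. The 4 CD + Veh mice ate the control diet (CD, chow in the labels, 10 kcal% fat) and were gavaged with the vehicle (Veh), Tween 20 in water. The 5 CD + PE mice ate the same diet and received 2 mg of polyethylene (PE) microplastic per mouse and day in that vehicle. MD + Veh and MD + PE mice, 5 in each group, were gavaged in the same 2 ways and ate the MASH diet (MD). In this diet fat gave 40 and fructose gave 20 kcal%, and cholesterol made up 2%, and it is used to model metabolic dysfunction-associated steatohepatitis. Each library held the RNA of 1 mouse. Mice of a group shared housing, so that cage and group cannot be told apart.

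Hepatocytes differ along the lobule between the portal tract, where blood enters, and the central vein, where it leaves. Endothelial cells of the central vein secrete Wnt ligands and R-spondins, and the hepatocytes next to that vein respond through beta-catenin with a program of ammonium capture, glutamine synthesis and drug metabolism. Periportal hepatocytes carry out urea synthesis, amino acid breakdown and gluconeogenesis. Glutamine is broken down by periportal glutaminase and made again by pericentral glutamine synthetase, so that Gls2 and Glul stand at opposite ends of a cycle.

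Sequence before the transcription start of the members was read from GRCm39. The motif of TCF/LEF factors, through which beta-catenin acts, was searched on both strands in the 300 bases before the start of each canonical transcript of GENCODE vM39. Its spellings were AACAAAG for the first, ATCAAAG for the second, TACAAAG for the third and TTCAAAG for the fourth. A match was found in 4 of the 10 members, the pericentral genes Axin2 and Lect2 and the periportal genes Hal and Gls2, and in 15.4% of 12343 protein-coding genes tested. The motif CACGTG (E-box), which clock factors bind, was in 0 of the 10 windows and in 8.56% of all. Full windows are shown for the periportal genes, which hold a match, and for Lgr5, the R-spondin receptor among the members, which is shown for contrast. These windows hold 0 bases of exons of other annotated transcripts of the same gene, and exons of other genes were not checked. Each is written 5′ to 3′ on the strand of the gene and ends at the base before the start, and capitals mark the TCF/LEF match.
Gls2, chr10:128030016-128030315, plus strand: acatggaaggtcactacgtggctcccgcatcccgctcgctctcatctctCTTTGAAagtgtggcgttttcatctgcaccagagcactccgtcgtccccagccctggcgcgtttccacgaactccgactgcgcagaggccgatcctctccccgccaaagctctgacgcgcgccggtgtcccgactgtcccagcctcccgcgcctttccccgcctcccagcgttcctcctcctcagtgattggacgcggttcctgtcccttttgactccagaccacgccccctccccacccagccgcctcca
Hal, chr10:93324329-93324628, plus strand: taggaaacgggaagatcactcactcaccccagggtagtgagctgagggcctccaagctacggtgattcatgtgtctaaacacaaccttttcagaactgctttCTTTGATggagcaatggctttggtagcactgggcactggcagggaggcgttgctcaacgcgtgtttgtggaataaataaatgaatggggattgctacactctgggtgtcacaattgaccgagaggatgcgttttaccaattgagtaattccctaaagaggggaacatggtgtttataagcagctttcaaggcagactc
Lgr5, chr10:115423686-115423985, minus strand: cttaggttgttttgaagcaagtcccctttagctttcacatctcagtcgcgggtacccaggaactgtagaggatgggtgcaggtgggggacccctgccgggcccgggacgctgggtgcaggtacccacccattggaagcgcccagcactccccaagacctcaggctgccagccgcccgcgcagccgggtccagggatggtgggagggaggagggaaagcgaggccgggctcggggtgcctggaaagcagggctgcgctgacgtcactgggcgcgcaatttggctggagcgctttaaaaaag
The Lgr5 window held 0 matches. The Axin2 and Lect2 windows hold 62 and 66 bases of exons of other annotated transcripts of the same gene. Of the other windows without a match, those of Tbx3, Oat, Glul and Rhbg hold 300, 224, 111 and 27 such bases. The window of Slc1a2 holds 0, and that of Tbx3 lies wholly within such exons. The matches in Axin2 and Lect2 began 22 and 23 bases before the start, against 198 in Hal and 251 in Gls2, and are shown with the bases on each side.
Axin2 site: tcggctcgcgcCTTTGAAgtgcacagtta
Lect2 site: tgcttctccagATCAAAGgctttggccgg
A match describes letters in the window and was not tested as a binding site.

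The libraries held between 10398820 and 15456729 counts, and every PE library held fewer than every vehicle library of its diet. Values are CPM, counts scaled to library size with TMM factors. They are not divided by transcript length, so each gene is compared across libraries and not with other genes. A gene was called where edgeR's quasi-likelihood test, adjusted over all 13597 genes, gave p below 0.05 and its log2 fold change was 0.38 or more in size. Markers of hepatocytes were abundant in all 19 libraries, with a summed level of 50294 to 96564 CPM over 8 genes. Skeletal muscle markers reached 3078 CPM in MD + Veh replicate 1 (sum of 8 genes), Kupffer cell markers 614 CPM in CD + PE replicate 2 (6 genes) and intestinal markers 322 CPM in MD + PE replicate 2 (7 genes). The ribosomal pseudogene Rps6-ps4 had 1088 to 1690 counts in each of the 7 libraries numbered 39 to 45 (CD + Veh and MD + Veh replicates 1 to 3) and 0 in the 12 numbered 46 to 57. All CD + Veh libraries lay on the first side of this division and all PE libraries on the second, and only MD + Veh lay on both. A score of clock genes (mean log2 CPM of Bmal1, Clock and Npas2 minus that of Nr1d1, Nr1d2, Dbp and Per3) ranged from -5.39 to -4.34 in the CD + Veh libraries and from -3.81 to 0.065 in those of CD + PE. It ranged from -3.13 to -0.62 in MD + Veh libraries and from -2.65 to -0.72 in MD + PE libraries. The side of the library numbers and the clock score were each tried as a covariate, and results that changed are given with their values. Shares of all genes called are those of the fit without covariates on all 19 libraries, and were not counted in other fits.

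**Figure D1:**
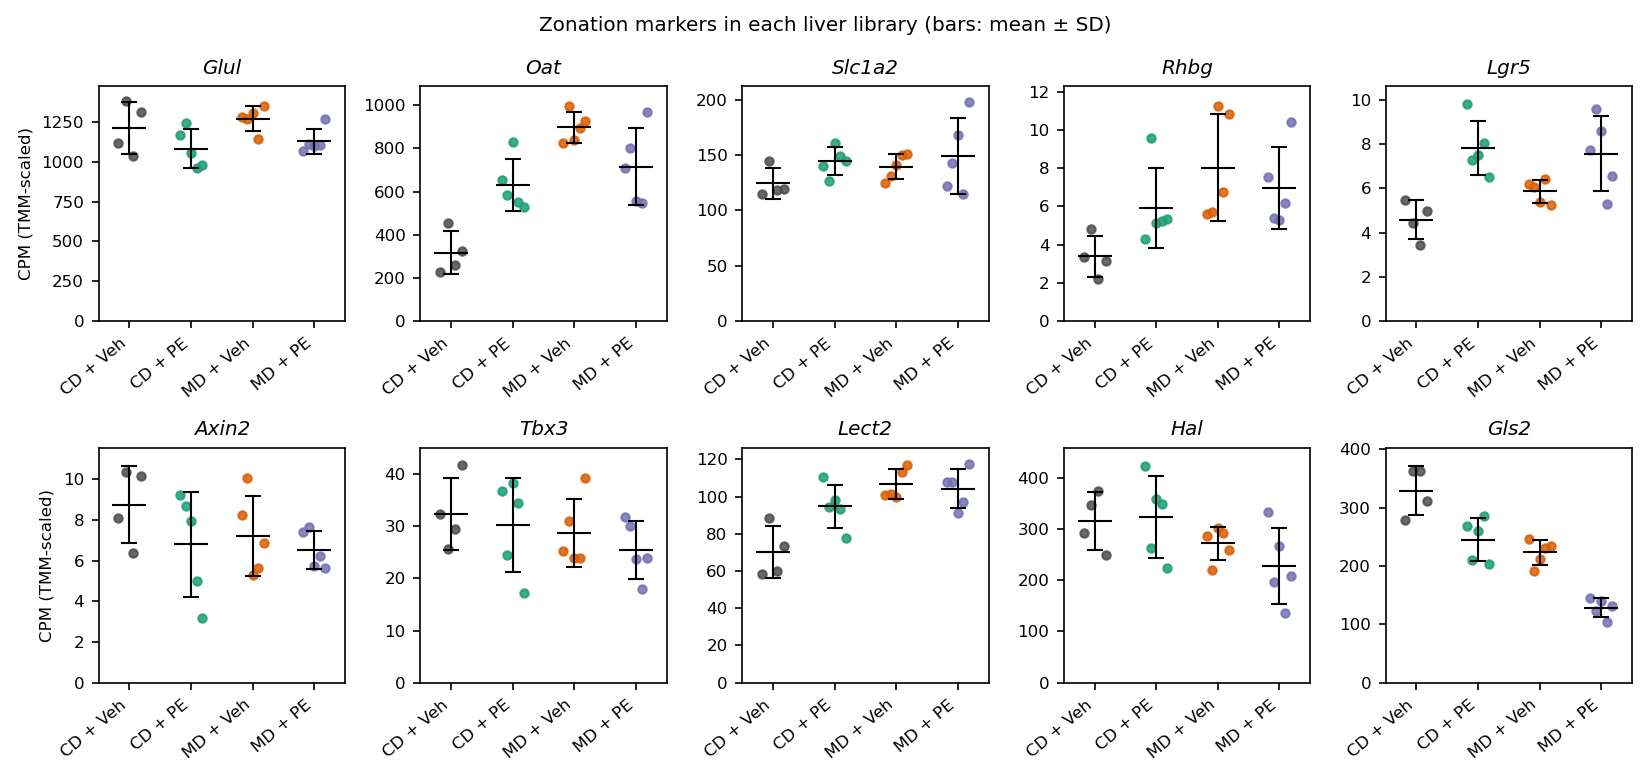
TMM-scaled CPM (y axes, from 0) of the 10 zonation markers in the 19 libraries, by group (x axes), with 1 point per mouse and bars for mean ± SD. Oat, Slc1a2, Rhbg, Lgr5 and Lect2 had their lowest mean in CD + Veh, and Slc1a2 was called in no comparison. Gls2 stepped down from a mean of 329 CPM in CD + Veh to 129 CPM in MD + PE.

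The comparison of diets in vehicle-treated mice asked how the MD alters hepatic expression without plastic. In MD + Veh against CD + Veh, 3 pericentral members rose (Oat, Rhbg and Lect2) and the periportal member Gls2 fell, so that 4 of 10 members were called. Over all genes tested 10.4% were called. The libraries did not overlap between the groups for these 4 members, and over all genes 16.2% did not overlap. Glul, Slc1a2, Lgr5, Axin2, Tbx3 and Hal were not called.

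Oat (chromosome 7, 132159153 to 132191517) encodes ornithine aminotransferase, which turns ornithine into a precursor of glutamate next to the central vein. It was at 227, 452, 261 and 325 CPM in the CD + Veh libraries and at 825, 998, 838, 896 and 929 CPM in the MD + Veh libraries. The lowest MD + Veh library lay well above the highest CD + Veh library. The log2 fold change was 1.50 (SE 0.196, adjusted p = 4.77e-05), the largest among the members in this comparison.

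Rhbg (chromosome 3, 88150181 to 88162043) encodes an ammonium transporter. It was at 3.36, 4.80, 2.21 and 3.17 CPM in CD + Veh and at 5.58, 5.70, 11.3, 6.73 and 10.8 CPM in MD + Veh. MD + Veh replicates 3 and 5 were the highest, and all 5 MD + Veh libraries lay above the CD + Veh libraries. Rhbg rose by 1.24 on the log2 scale (SE 0.294, adjusted p = 0.00769). Its levels rest on 33 to 165 counts per library.

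Lect2 (chromosome 13, 56684477 to 56696569), a target of beta-catenin that encodes a protein secreted by hepatocytes, was at 58.5, 88.4, 60.2 and 73.4 CPM in CD + Veh. In MD + Veh it was at 101, 101, 99.9, 113 and 117 CPM. These 5 values lay in a narrow band above all CD + Veh libraries. The increase was 0.61 on the log2 scale (SE 0.117, adjusted p = 0.00161).

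Gls2 (chromosome 10, 128030316 to 128045873) encodes the liver-type glutaminase, which releases ammonium from glutamine in periportal hepatocytes. It was at 279, 364, 363 and 312 CPM in CD + Veh and at 247, 191, 213, 231 and 235 CPM in MD + Veh. Every MD + Veh library lay below every CD + Veh library. Gls2 fell by 0.56 on the log2 scale (SE 0.117, adjusted p = 0.00307). With the clock score as a covariate, Gls2 and Rhbg were not called (-0.42, adjusted p = 0.202, and 1.01, adjusted p = 0.189), while Oat and Lect2 were. Within 1 side of the library numbers, that is without MD + Veh replicates 4 and 5, 4 members were called. Without MD + Veh replicate 1, the library with the most muscle RNA, also 4 were called. MD + Veh replicates 2 and 3, which stayed in that fit, held 194 and 139 CPM of muscle markers.

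The other periportal member, Hal (chromosome 10, 93324629 to 93355166), encodes histidine ammonia-lyase, which opens histidine breakdown. It was at 292, 346, 375 and 249 CPM in CD + Veh and at 286, 221, 302, 292 and 259 CPM in MD + Veh, and these ranges overlapped. Its log2 fold change was -0.21 (95% interval -0.65 to 0.23, adjusted p = 0.539).

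**Figure D2:**
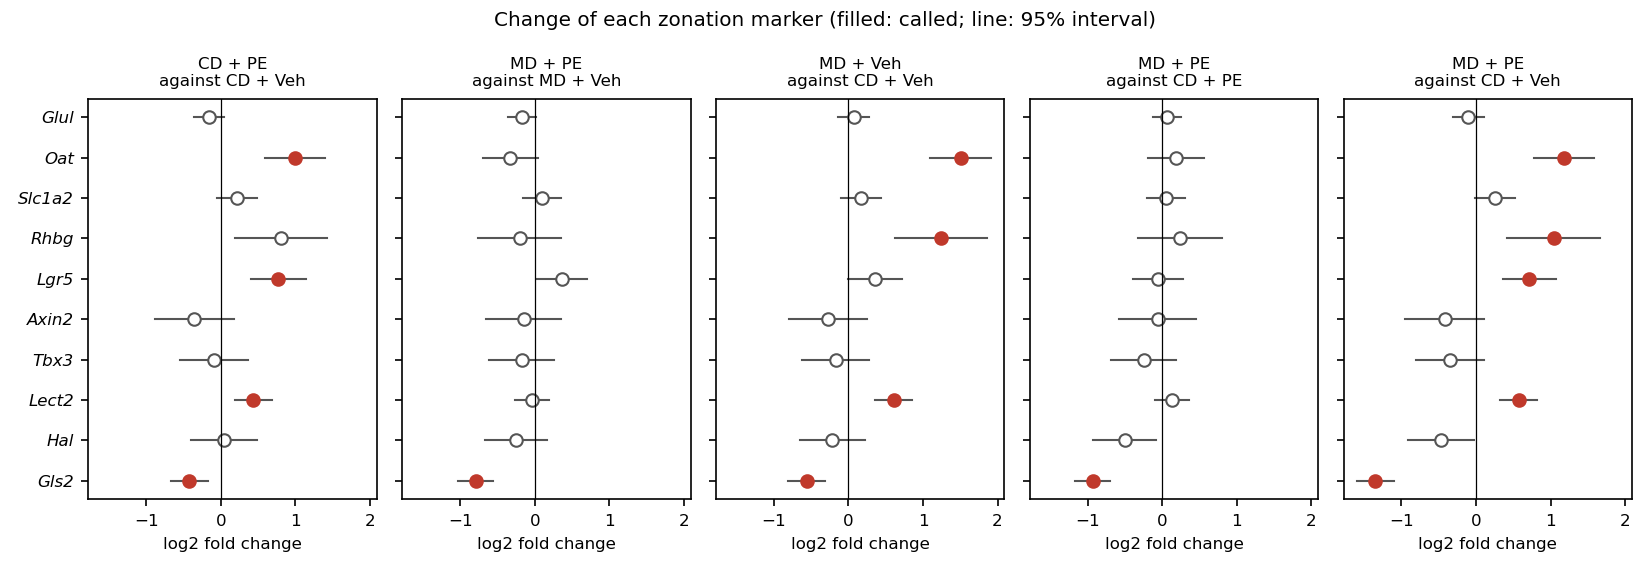
Log2 fold change (x axes) of each zonation marker (y axis) in 5 comparisons of groups, with lines for the 95% interval and filled points for called genes. Gls2 was called lower in all 5, and Oat was called higher in the 3 comparisons against CD + Veh.

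PE gavage on the control diet was compared with vehicle to ask what the particles alter without the MD. In CD + PE against CD + Veh, Oat, Lgr5 and Lect2 rose and Gls2 fell, 4 of 10 members, with 2.92% of all genes called. Libraries of the groups did not overlap for Oat and Lgr5, 2 of 10 members, and for 7.83% of all genes. Oat, Lect2 and Gls2 were also called between the diets in vehicle-treated mice, and both comparisons use the same CD + Veh libraries.

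Oat was at 655, 585, 829.8, 551 and 529.9 CPM in CD + PE, all above the highest CD + Veh library at 452 CPM. It rose by 0.99 on the log2 scale (SE 0.193, adjusted p = 0.00714). Lgr5 (chromosome 10, 115286216 to 115423685), a receptor for R-spondins that marks hepatocytes around the central vein, was at 5.47, 4.44, 3.42 and 4.98 CPM in CD + Veh. In CD + PE it was at 9.80, 7.28, 7.50, 8.03 and 6.52 CPM, in each library above the whole CD + Veh group. The increase of Lgr5 was 0.77 on the log2 scale (SE 0.173, adjusted p = 0.0166), from levels that rest on 51 to 118 counts per library. Without CD + Veh replicate 3, the lowest library, it was 0.66 (adjusted p = 0.0519).

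Lect2 was at 110.3, 94.3, 98.4, 93.2 and 77.9 CPM in CD + PE. The lowest of these lay below CD + Veh replicate 2, so that the groups overlapped. Its log2 fold change was 0.44 (SE 0.117, adjusted p = 0.0426). Gls2 was at 269, 210.2, 259, 285 and 203 CPM, with CD + PE replicate 4 just above CD + Veh replicate 1. Gls2 fell by 0.42 on the log2 scale (SE 0.117, adjusted p = 0.0496).

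Several of these calls stood close to the threshold. Of 19 fits that left out 1 library each, Oat was called in 19, Lgr5 in 18, Lect2 in 7 and Gls2 in 4, and without CD + Veh replicate 3 Oat alone was called. The count of members was 2 without CD + Veh replicate 4, MD + Veh replicate 3 or 4, CD + PE replicate 1, 2 or 3, or MD + PE replicate 1 or 2. With the side of the library numbers as a covariate 0 of the 10 members were called by edgeR, with log2 fold changes of 0.95 for Oat, 0.79 for Lgr5, 0.24 for Lect2 and -0.53 for Gls2 (adjusted p = 0.240, 0.294, 0.664 and 0.297). The share of all genes called in that fit was not counted. Its side term was estimated from MD + Veh alone, since CD + Veh and CD + PE each lay wholly on 1 side. With the clock score Oat alone was called.

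Rhbg was at 4.32, 9.56, 5.12, 5.22 and 5.34 CPM in CD + PE, with replicate 2 apart from the other four. Its log2 fold change was 0.81 (95% interval 0.18 to 1.43, adjusted p = 0.145), so that it was not called. CD + PE replicate 2 also held 614 CPM of Kupffer cell markers against 67.3 to 103 CPM in the other four, and the part of this in the value of Rhbg was not tested.

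MD + PE against MD + Veh asked what PE adds on the MD. Here 1 of 10 members was called, Gls2, and 1.08% of all genes were. Gls2 was at 145, 122, 140.4, 104 and 132 CPM in MD + PE, all below the lowest MD + Veh library at 191 CPM. The groups did not overlap for this 1 member and for 3.57% of all genes. It fell by 0.79 on the log2 scale (SE 0.112, adjusted p = 0.00114) and ranked 12 of 13597 genes by p. Gls2 was called in 19 of 19 fits that left out 1 library each, with each of the 2 covariates, and on 1 side of the library numbers alone (without MD + Veh replicates 1 to 3).

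Of the 8 pericentral members 0 were called for PE on the MD by edgeR or by DESeq2, and 1 (Lgr5) had an unadjusted p below 0.05. Oat was at 708, 800.4, 557, 545 and 969.5 CPM in MD + PE. MD + PE replicates 1 to 4 lay below all MD + Veh libraries and replicate 5 within their range. The log2 fold change of Oat was -0.33 (95% interval -0.70 to 0.047, adjusted p = 0.400). Lgr5 was at 7.72, 9.60, 8.61, 5.29 and 6.56 CPM in MD + PE and at 6.21, 6.07, 5.39, 6.42 and 5.25 CPM in MD + Veh. Replicates 1 to 3 and 5 of MD + PE lay above all MD + Veh libraries, and replicate 4 near the lowest of them. This gave 0.36 on the log2 scale (95% interval 0.026 to 0.70, adjusted p = 0.277). Lect2 was at 108, 108, 91.1, 97.0 and 117 CPM in MD + PE, with replicates 3 and 4 below the MD + Veh libraries, replicate 5 just above and the others within their range. Its log2 fold change was -0.032 (95% interval -0.26 to 0.20, adjusted p = 0.928).

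The interaction tested whether the change with PE differed between the diets. Of the 10 members 0 were called by edgeR, 4 had an unadjusted p below 0.05 (Oat, Rhbg, Lect2 and Gls2), and 1 was called by DESeq2. Over all genes 0.00735% were called by edgeR, and the share called by DESeq2 was not counted. Oat had the largest interaction among the members, -1.32 on the log2 scale (SE 0.262, adjusted p = 0.156), and ranked 6 of 13597 genes by p. With PE its mean was higher on the CD (630.1 ± 121 against 316 ± 99.4 CPM) and lower on the MD (716 ± 177 against 898 ± 70.6 CPM, SD in each case). DESeq2 gave -1.30 (adjusted p = 0.00102), the fit with the replicate block -1.34 (adjusted p = 0.0423) and the fit without CD + Veh replicate 2 -1.54 (adjusted p = 0.0346). Lect2 and Rhbg gave -0.47 and -1.01 (adjusted p = 0.365 and 0.462), the same sign as Oat. For Gls2 the interaction was -0.37 (95% interval -0.71 to -0.030, adjusted p = 0.533).

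The diets were also compared in PE-treated mice. In MD + PE against CD + PE 1 of 10 members was called, with 4.61% of all genes. Gls2 fell by 0.93 on the log2 scale (SE 0.113, adjusted p = 2.61e-05), and it was the 1 member whose groups did not overlap, as for 6.18% of all genes. Oat gave 0.18 here (95% interval -0.19 to 0.56, adjusted p = 0.597). Hal was at 423, 262, 359, 349.6 and 223 CPM in CD + PE and at 332, 197, 267, 136 and 207 CPM in MD + PE. These ranges overlapped widely, with a log2 fold change of -0.51 (95% interval -0.92 to -0.088, adjusted p = 0.137). Without MD + PE replicate 1, the highest of its group, Hal was called at -0.68 (adjusted p = 0.0408).

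Both exposures together were set against neither. In MD + PE against CD + Veh 5 of 10 members were called, Oat, Rhbg, Lgr5 and Lect2 higher and Gls2 lower, with 14.6% of all genes called. Libraries did not overlap for 4 of them, all but Lgr5, and for 18.8% of all genes. Gls2 fell by 1.35 on the log2 scale (SE 0.118, adjusted p = 1.48e-07), from 329 ± 41.5 CPM (SD, n = 4) to 129 ± 16.2 CPM (n = 5). Oat rose by 1.18 (SE 0.194, adjusted p = 0.000235), Rhbg by 1.04 (SE 0.295, adjusted p = 0.0169), Lgr5 by 0.72 (SE 0.173, adjusted p = 0.00595) and Lect2 by 0.57 (SE 0.117, adjusted p = 0.00162). Rhbg was not called without CD + Veh replicate 3 (adjusted p = 0.0621) or without MD + PE replicate 5 (adjusted p = 0.0507). With the side of the library numbers as a covariate, Oat and Gls2 were called, while Rhbg, Lgr5 and Lect2 gave 0.81, 0.73 and 0.38 (adjusted p = 0.331, 0.146 and 0.248). With the clock score Rhbg and Lgr5 were not called (adjusted p = 0.236 and 0.0998). Hal gave -0.47 (95% interval -0.91 to -0.029, adjusted p = 0.125), and without MD + PE replicate 1 it was called at -0.64 (adjusted p = 0.0305).

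Other pericentral members were not called in any comparison. Glul (chromosome 1, 153775690 to 153785469), glutamine synthetase, which is expressed in the hepatocytes bordering the central vein, was at 1118, 1383, 1033 and 1309 CPM in CD + Veh and at 1168, 1245, 1053, 959 and 980.0 CPM in CD + PE. In MD + Veh Glul was at 1281, 1270.1, 1303, 1143 and 1348 CPM and in MD + PE at 1064, 1108, 1099, 1105 and 1265 CPM. All 4 groups overlapped, and with PE the mean was lower in both diets, 1081 ± 123 against 1211 ± 163 CPM (SD) on the CD and 1128 ± 78.5 against 1269 ± 76.7 CPM on the MD. The log2 fold changes for PE were -0.16 (95% interval -0.37 to 0.039) on the CD and -0.17 (95% interval -0.36 to 0.022) on the MD, with adjusted p = 0.413 and 0.390. With the MD and vehicle Glul gave 0.068 (95% interval -0.14 to 0.27, adjusted p = 0.690).

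Slc1a2 (chromosome 2, 102488574 to 102621129), a glutamate transporter, ranged from 114 to 198 CPM over the 19 libraries. Its log2 fold changes lay between 0.047 and 0.26 in the 5 comparisons of groups. The highest value was in MD + PE replicate 5, which also had the highest Oat, Rhbg, Lect2 and Glul of its group.

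Axin2 (chromosome 11, 108811169 to 108841609), a feedback inhibitor often read as a measure of Wnt signalling, and Tbx3 (chromosome 5, 119806298 to 119822797), a transcription factor induced by beta-catenin, had log2 fold changes below 0 in all 5 comparisons of groups, and none was called. For Axin2 they ran from -0.42 (MD + PE against CD + Veh, 95% interval -0.95 to 0.11) to -0.063, and for Tbx3 from -0.35 (95% interval -0.80 to 0.11) to -0.096. In some alternative fits the sign changed, that of Axin2 for PE on the MD and in MD + PE against CD + PE, and that of Tbx3 for PE on the CD. The mean of Axin2 was 8.75 ± 1.90 CPM (SD, n = 4) for CD + Veh mice and 6.81 ± 2.60 CPM (n = 5) for CD + PE mice. Its mean was 7.24 ± 1.97 CPM in MD + Veh and 6.54 ± 0.935 CPM in MD + PE. Tbx3 was at 32.4 ± 6.85, 30.3 ± 9.09, 28.7 ± 6.58 and 25.5 ± 5.52 CPM in the same order of groups. CD + PE replicate 5 was the lowest of its group for Oat, Lgr5, Axin2, Tbx3, Lect2, Hal and Gls2. Among the 4 members of Wnt signalling and its targets, Axin2 and Tbx3 were called in no comparison. Lgr5 and Lect2 were called higher in CD + PE and in MD + PE against CD + Veh, and Lect2 also in MD + Veh against CD + Veh. All of these calls were against the same CD + Veh libraries.

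**Figure D3:**
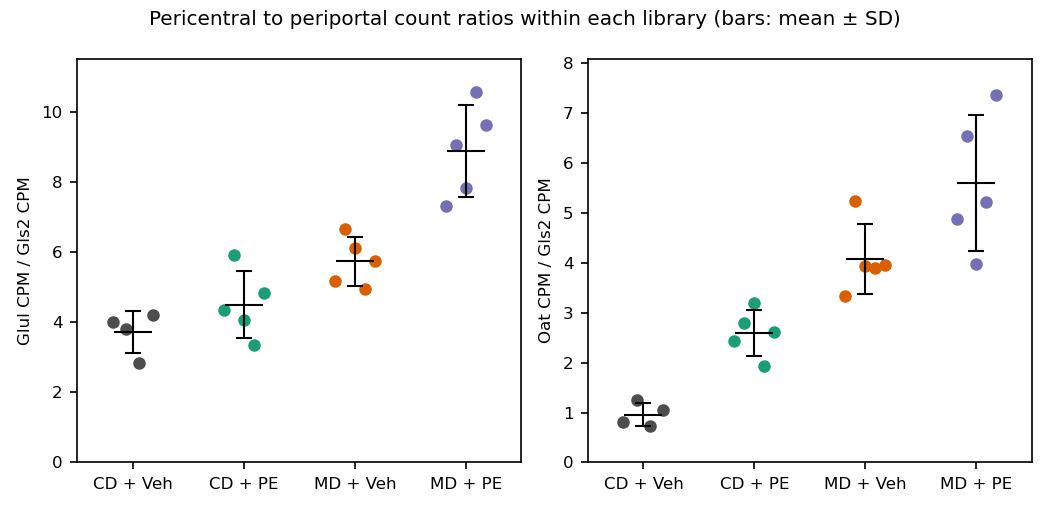
Count ratio of Glul to Gls2 and of Oat to Gls2 (y axes, from 0) within each of the 19 libraries, by group (x axes), with bars for mean ± SD. The Glul to Gls2 ratio was at most 6.66 outside MD + PE and at least 7.33 within it.

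A ratio of 2 genes within a library does not depend on the scaling between libraries. The ratio of Glul counts to Gls2 counts was 3.72 ± 0.600 (SD, n = 4) in CD + Veh and 4.50 ± 0.955 in CD + PE. It was 5.73 ± 0.694 in MD + Veh and 8.88 ± 1.32 in MD + PE (n = 5 in each of these groups). The 5 MD + PE libraries, from 7.33 to 10.6, lay above all others, and the MD + Veh libraries lay above those of CD + Veh. The mean ratio of Oat to Gls2 counts went from 0.955 ± 0.235 in CD + Veh through 2.59 ± 0.466 in CD + PE and 4.07 ± 0.699 in MD + Veh to 5.60 ± 1.35 in MD + PE. The ratios are not per length, combine genes with known results, and are given as a description without a test. Both divide by Gls2, which was called lower in every comparison of groups, while Glul was called in none. Hal, the other periportal member, overlapped between the groups in every comparison and was called in none. Ratios to Hal were not taken, so the order of the groups describes Gls2 and not periportal genes in general.

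Other zonated hepatocyte genes were read from lists of 20 pericentral and 20 periportal genes, all of which passed the filter. These lists were chosen with earlier results of these data known, so their counts are given as a description. On the MD with vehicle, 10 of the 20 pericentral genes were called higher and 0 lower, with a median log2 fold change of 0.62, while 4.74% of all genes were called higher. Aldh3a2, a fatty aldehyde dehydrogenase, rose by 1.76 (adjusted p = 2.33e-06), Slc13a3, a dicarboxylate transporter, by 1.65 (adjusted p = 1.52e-06), Nt5e by 1.30 (adjusted p = 0.00592) and Aldh1a1, a retinal dehydrogenase, by 1.15 (adjusted p = 0.000327). Cyp2e1, the ethanol-oxidizing cytochrome P450, rose by 0.52 (adjusted p = 0.0374), and Cyp1a2 gave -0.068 (adjusted p = 0.859). Of the 20 periportal genes, 5 were called lower and 0 higher, with a median of -0.32, against 5.63% of all genes called lower. They were the cadherin Cdh1 (-1.07, adjusted p = 0.00182), the serine dehydratase Sds (-0.67, adjusted p = 0.0408), the arginase Arg1 (-0.49, adjusted p = 0.00428), Sdsl (-0.47, adjusted p = 0.0156) and the argininosuccinate synthase Ass1 (-0.39, adjusted p = 0.0460). Cyp2f2, a common periportal marker, gave 0.052 (adjusted p = 0.874). With the clock score as a covariate 5 of 20 and 2 of 20 were called. The periportal count was 2 without CD + Veh replicate 3 and 3 without CD + Veh replicate 4 or MD + Veh replicate 2, 4 or 5.

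**Figure D4:**
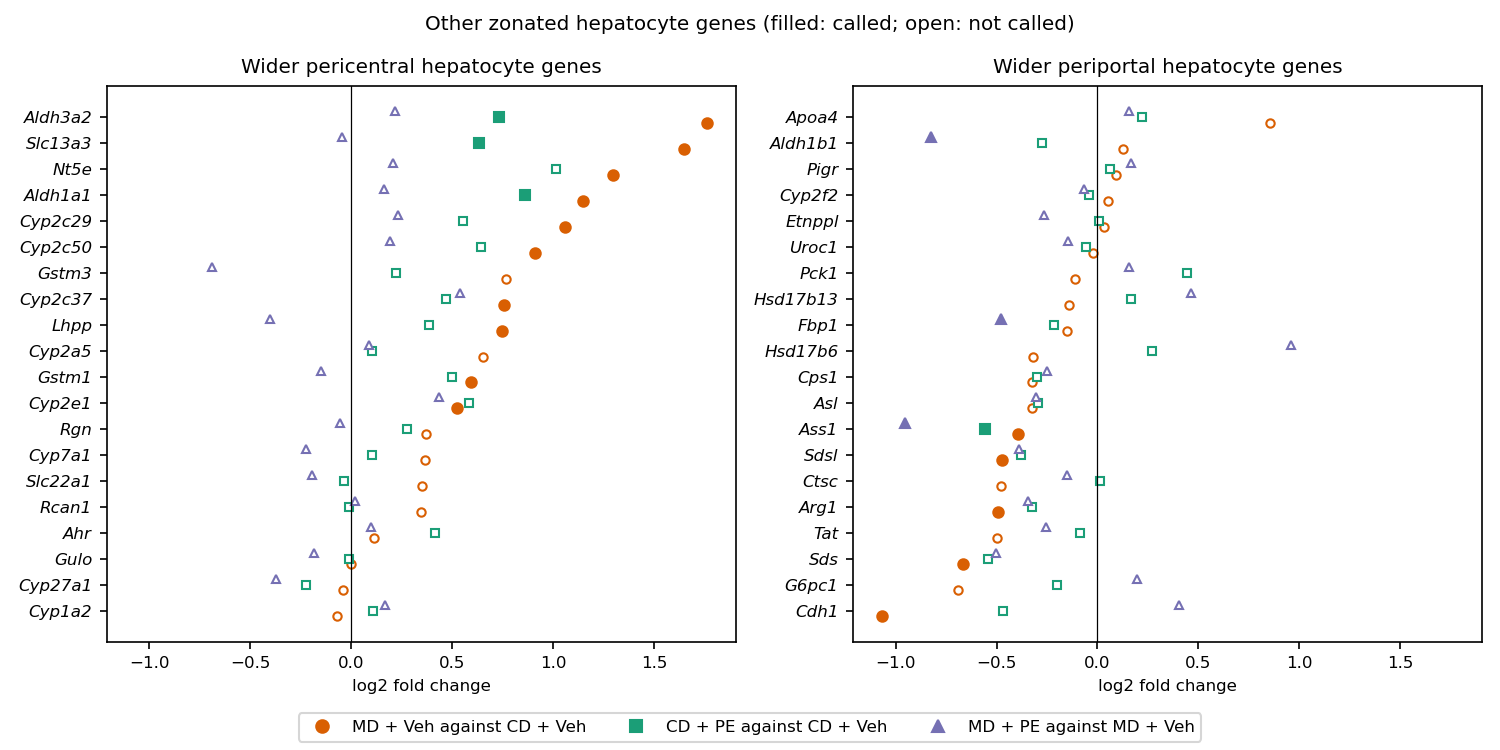
Log2 fold changes (x axes) of 20 pericentral and 20 periportal hepatocyte genes (y axes) for the MD (circles), for PE on the CD (squares) and for PE on the MD (triangles), with filled symbols for called genes. With the MD 10 pericentral genes were called higher and 5 periportal genes lower, and with PE on the MD 3 periportal genes were called lower and 0 pericentral genes were called. Both lists were chosen with earlier results of these data known.

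With PE on the CD, 3 of the 20 pericentral genes were called higher (Aldh1a1, Aldh3a2 and Slc13a3, by 0.86, 0.73 and 0.63, adjusted p = 0.0110, 0.0217 and 0.0308), and 1.22% of all genes were. The periportal call was Ass1, which fell by 0.56 (adjusted p = 0.0191), and 1.70% of all genes were called lower. The pericentral count was 1 without CD + Veh replicate 1 or 3, 6 without CD + Veh replicate 2, 5 without MD + PE replicate 4 and 0 with the side of the library numbers as a covariate. The periportal count was 0 with that covariate and without CD + Veh replicate 2.

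With PE on the MD, 0 of 20 pericentral genes were called by edgeR or DESeq2, 5 had an unadjusted p below 0.05, and 0.147% of all genes were called higher. The pericentral count was 1 without MD + Veh replicate 5 or MD + PE replicate 1, 3 or 5. Of the periportal genes 3 of 20 were called lower, against 0.934% of all genes. These were Ass1 (-0.95, adjusted p = 0.000611), Aldh1b1, a mitochondrial aldehyde dehydrogenase (-0.83, adjusted p = 0.00199), and Fbp1, fructose-bisphosphatase of gluconeogenesis (-0.48, adjusted p = 0.00702). In MD + PE against CD + PE, 4 pericentral genes were called higher and 6 periportal genes lower, against 1.69% and 2.92% of all genes. The pericentral count there was 2 without CD + PE replicate 2, 4 or 5 or MD + PE replicate 2, 3 or 5.

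In MD + PE against CD + Veh, 8 pericentral genes were called higher and 1 lower (Cyp27a1, -0.41, adjusted p = 0.000775), and Cyp2e1 rose by 0.96 (adjusted p = 0.000344). Of the periportal genes 0 were called higher and 10 lower. Over all genes 6.02% were called higher and 8.55% lower. Markers of hepatocytes moved too, of which Cps1 and Tat are also in the periportal list. In MD + Veh against CD + Veh 2 of 8 were lower (Alb and Apoa1, -0.48 and -0.42, adjusted p = 0.0324 and 0.0106), against 5.63% of all genes. In MD + PE against CD + Veh 5 of 8 were lower, among them Cps1. Their summed level was 74402 to 90981 CPM in CD + Veh, 53200 to 66438 CPM in MD + Veh and 50294 to 66802 CPM in MD + PE. In bulk liver, fewer cells of a type and less RNA per cell cannot be told apart, and the part of this shift in the periportal counts was not tested.

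Enzymes that share substrates with the members were read from 3 further lists. Of 13 tested enzymes of glutamine, glutamate and proline metabolism, 2 were called with PE on the CD, 1 with the MD, 0 with PE on the MD (3 at an unadjusted p below 0.05, and 0 of them called by DESeq2), 1 in MD + PE against CD + PE and 3 in MD + PE against CD + Veh. Over all genes 2.92%, 10.4%, 1.08%, 4.61% and 14.6% were called. Glud1, glutamate dehydrogenase, rose with PE on the CD and with the MD (0.41 and 0.47, adjusted p = 0.00870 and 0.000800) and in MD + PE against CD + Veh (0.48, adjusted p = 0.000406). Prodh, proline dehydrogenase, fell with PE on the CD by 0.65 (adjusted p = 0.0348) and in MD + PE against CD + Veh by 0.88 (adjusted p = 0.000894). Got1, the cytosolic aspartate aminotransferase, fell by 1.00 in MD + PE against CD + PE (adjusted p = 0.0211) and by 1.25 in MD + PE against CD + Veh (adjusted p = 0.00231). With PE on the CD, the call of Glud1 was lost without CD + Veh replicate 1 and that of Prodh when CD + PE replicate 2, 3 or 5, or CD + Veh replicate 2 or 4, was left out. The call of Got1 against CD + PE was lost without MD + PE replicate 3 or 4.

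Of the 8 urea cycle genes, which share Ass1, Arg1, Asl and Cps1 with the periportal list, 1 fell with PE on the CD, 2 with the MD, 1 with PE on the MD, 2 in MD + PE against CD + PE and 4 in MD + PE against CD + Veh, and 0 rose. Over all genes 1.70%, 5.63%, 0.934%, 2.92% and 8.55% were called lower. In the last of these comparisons Ass1 fell by 1.35, Arg1 by 0.84, Asl by 0.63 and Cps1 by 0.57 (adjusted p = 5.03e-07, 1.76e-05, 0.00413 and 0.00756). The 2 that fell against CD + PE were Ass1 and Arg1, by 0.79 and 0.51 (adjusted p = 0.000440 and 0.00405). The call of Ass1 was lost without CD + Veh replicate 2 for PE on the CD. For the MD it was kept in 6 of 19 fits that each left out 1 library, and it was lost without CD + Veh replicate 2, 3 or 4, MD + Veh replicate 2, 3, 4 or 5, CD + PE replicate 1, 3, 4 or 5 or MD + PE replicate 2 or 3.

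The other 4 enzymes of histidine use on the list, Uroc1, Amdhd1 and Ftcd of the breakdown that Hal opens and Hdc, which makes histamine, gave 0 calls by edgeR or DESeq2 in the 5 comparisons of groups. Of these, 2 had an unadjusted p below 0.05 with the MD, 2 in MD + PE against CD + PE and 2 in MD + PE against CD + Veh, each time Amdhd1 and Ftcd. In the last comparison they gave -0.37 and -0.34, under the limit on fold change (adjusted p = 0.0362 and 0.0216). Hal gave -0.51 and -0.47 in the latter 2 comparisons (adjusted p = 0.137 and 0.125).

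Among 9 tested transporters of amino acids and ammonium, 0 were called with PE on either diet by edgeR, where 2 and 2 had an unadjusted p below 0.05. Slc38a3, a glutamine carrier of hepatocytes, gave -0.47 and -0.48 there and was called by DESeq2 in both (adjusted p = 0.0160 and 0.0217), as was Slc38a2, another neutral amino acid carrier, with PE on the MD (0.47, adjusted p = 0.0155). With the MD, 1 transporter rose and 2 fell, against 4.74% and 5.63% of all genes. Slc1a4, a carrier of neutral amino acids, rose by 1.44 (adjusted p = 0.0113), from 1.95 to 4.73 CPM in CD + Veh to 6.26 to 13.0 CPM in MD + Veh. Slc38a3 fell by 0.70 (adjusted p = 0.00224) and Slc38a2 by 0.47 (adjusted p = 0.0216). Slc38a3 was the 1 call in MD + PE against CD + PE, where it fell by 0.71 (adjusted p = 0.00275) and 2.92% of all genes were called lower. Slc43a1, a carrier of large neutral amino acids, fell by 1.29 in MD + PE against CD + Veh (adjusted p = 0.0187) and Slc38a3 by 1.18 (adjusted p = 8.23e-06), while 8.55% of all genes were called lower. The call of Slc38a2 with the MD was lost without CD + Veh replicate 2 or 3 or MD + Veh replicate 1, 2 or 3, and that of Slc43a1 without CD + Veh replicate 2.

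Components of the Wnt pathway were examined by role. Of the ligands and R-spondins 6 of 8 passed the filter. Of these 0 were called by edgeR with the MD or with PE on either diet, where 0, 1 and 1 had an unadjusted p below 0.05. Rspo3, the R-spondin of central vein endothelium, gave 0.35 with PE on the CD, 0.22 with the MD and 0.34 with PE on the MD (adjusted p = 0.348, 0.470 and 0.349), and rose by 0.56 in MD + PE against CD + Veh (adjusted p = 0.0380). It was the 1 of these 6 genes called there, against 6.02% of all genes called higher. The call was lost without CD + Veh replicate 1, 3 or 4 or MD + PE replicate 1, 2 or 4. Wnt2 gave 0.66 in that comparison (adjusted p = 0.0557) and was called there by DESeq2 (adjusted p = 0.0443), and Wnt9b gave -0.71 (adjusted p = 0.220). Stab2 and Oit3, other endothelial markers, also rose there, by 0.51 and 0.39 (adjusted p = 0.00974 and 0.0386). The summed level of the 7 endothelial markers other than Rspo3, Wnt2 and Wnt9b was 140 to 170.0 CPM in CD + Veh and 167 to 220 CPM in MD + PE, and its part in the value of Rspo3 was not tested.

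Of 10 Wnt receptors and co-receptors 0 were called by edgeR or DESeq2 in any comparison of groups, with 3 at an unadjusted p below 0.05 for the MD, 1 for PE on the MD, 1 for the MD under PE and 0 in the others. Of 15 transducers tested, Tcf7l1, Dvl2 and Dvl1 fell with the MD, by 1.00, 0.90 and 0.41 (adjusted p = 0.00327, 0.00128 and 0.000620), while 5.63% of all genes were called lower. In MD + PE against CD + Veh 4 of 15 fell, against 8.55% of all genes, and they were Tcf7l1, Dvl2, Dvl1 and Pygo2 (-0.78, -0.74, -0.52 and -0.44, adjusted p = 0.0126, 0.00400, 2.90e-05 and 0.00693). The call of Dvl1 with the MD was lost without CD + Veh replicate 2 and that of Pygo2 without CD + Veh replicate 3. Of 10 inhibitors and targets tested, 1 was called in each of 3 comparisons, the secreted inhibitor Notum. It fell with the MD by 0.57 (adjusted p = 0.00428), in MD + PE against CD + PE by 0.44 (adjusted p = 0.0316) and in MD + PE against CD + Veh by 0.38 (adjusted p = 0.0375). Over all genes 5.63%, 2.92% and 8.55% were called lower in these 3 comparisons. The second call was lost without CD + PE replicate 1 or 3 or MD + PE replicate 2, 4 or 5. The third was kept in 8 of 19 fits that each left out 1 library, and was lost without any of the CD + Veh libraries, MD + Veh replicate 1 or 5, CD + PE replicate 1 or 4 or MD + PE replicate 2, 4 or 5. The feedback ligases Znrf3 and Rnf43 gave -0.12 and -0.61 (adjusted p = 0.515 and 0.108) with the MD.

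Genes with a pattern like that of 4 members were sought by Pearson's r of log2 CPM over the 19 libraries, which share groups and depth, among 9392 genes whose mean CPM was 5 or more. For Gls2 the nearest were Haao, an enzyme of tryptophan breakdown (r = 0.957), Qdpr, which recycles tetrahydrobiopterin (r = 0.952), and Ass1 (r = 0.952). For Oat they were Uck1, a uridine-cytidine kinase (r = 0.948), the member Lect2 (r = 0.931) and Fitm1, a protein of lipid droplet formation (r = 0.917). For Hal they were Whamm, Aspdh and Kyat1 (r = 0.911, 0.885 and 0.861), and for Glul Prnp, Dnajc15 and Vac14 (r = 0.824, 0.774 and 0.763).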

How the data were processed

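RNA of 19 mouse livers had been sequenced, with 1 poly(A) library per mouse. The authors trimmed reads with fastp 0.23.4 and estimated transcript abundance with Salmon 1.10.3 on GRCm39 transcripts, which tximport collapsed to genes. The deposited table gives estimated counts per gene as whole numbers, neither normalized nor filtered. Depth was 10398820 to 15456729 counts per library, so that counting error weighs most on Rhbg, Lgr5 and Axin2. Groups came from the labels, which name no litter or day, and p-values measure the spread between these mice.

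The analysis used edgeR 4.0.16 in R 4.3.3 (filterByExpr by group, TMM, 1 coefficient per group over all 19 libraries, quasi-likelihood F test, Benjamini-Hochberg adjustment over 13597 genes). SE was taken as the size of the log2 fold change over the root of F, and 95% intervals from the t distribution. DESeq2 1.42.0, the tool of the study, was an alternative, beside RLE scaling, other filters, no minimum fold change, robust dispersion, the 2 groups alone, a replicate block, 2 covariates, thinning to 10398820 counts and each library left out. Replicate numbers recur in each group. Residuals of the 27 library pairs that have the same number had a median correlation of 0.0293, and 6 exceeded 0.1, so libraries were treated as unpaired. At most 1.85% of genes had identical counts in any of 36 pairs of libraries of a group. All members are named, and of each list up to 4 called genes per comparison by size of change, neighbours of a member's pathway step, and members of counts of 5 or fewer, the latter picked with their values in view. The members and lists were chosen with earlier results of these data known. Scripts were tested on simulated data. Gene positions come from GENCODE vM39 (GRCm39).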

Additional observations from a re-analysis of the deposited data

Results flagged for a closer look

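Of 40 sets of values (10 members in 4 groups), 3 had a library far from the others of its group by Dixon's test at the 95% level, where chance flags about 1 set in 20. Glul in MD + PE replicate 5 was at 1265 CPM against 1064 to 1108 CPM in the other four. Slc1a2 in CD + Veh replicate 2 was at 145 CPM against 115 to 119 CPM in the other libraries of its group. Rhbg in CD + PE replicate 2 was at 9.56 CPM against 4.32 to 5.34 CPM in the other four.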

How the results depend on the processing

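Calls of members moved most for PE on the CD, where 4 were reported. There 2 were called with no filter on low counts, with the 2 groups alone and with the replicate block, 1 with the clock score and 0 with the side of the library numbers. With the clock score 2 were called for the MD (4 reported) and 3 for both exposures (5 reported), and with the side of the library numbers 2 for both exposures. The interaction gave 1 call by DESeq2 and 1 with the replicate block (0 reported). Leaving out each library gave 1 to 4 calls for PE on the CD, 4 to 4 for the MD, 1 to 1 for PE on the MD, 1 to 2 for the MD under PE, 4 to 6 for both exposures and 0 to 1 for the interaction. With the replicate block Lect2 and Gls2 lost their calls for PE on the CD (adjusted p = 0.0598 and 0.0764, edgeR's quasi-likelihood test), Oat gained one in the interaction, and it changed no other call of a member. The fit with the 2 groups alone was not run for the interaction.

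Log2 fold changes near 0, called in none of these fits, changed sign. With the clock score, Tbx3 and Hal for PE on the CD were at 0.014 and -0.014, Glul for the MD at -0.011 and Glul in the interaction at 0.055. With the side of the library numbers, Slc1a2 and Axin2 for PE on the MD were at -0.014 and 0.063 and Tbx3 in the interaction at 0.023. Without MD + Veh replicates 1 to 3, Slc1a2 and Axin2 for PE on the MD were at -0.0073 and 0.069. Glul in the interaction was at 0.0061 with RLE, 0.0072 by DESeq2 and 0.0029 with the replicate block. Without 1 library each, ranges that crossed 0 were, for PE on the CD, -0.20 to 0.064 for Tbx3 and -0.066 to 0.14 for Hal, and for the MD -0.0024 to 0.14 for Glul. For PE on the MD they were -0.029 to 0.18 for Slc1a2, -0.24 to 0.0027 for Axin2 and -0.078 to 0.013 for Lect2. For the MD under PE they were -0.076 to 0.14 for Slc1a2, -0.16 to 0.063 for Lgr5 and -0.24 to 0.069 for Axin2, and in the interaction -0.075 to 0.063 for Glul and -0.23 to 0.052 for Tbx3.

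Counts over the wider lists moved by over 1.5 times as follows. Pericentral genes for PE on the CD were 3 as reported, 6 by DESeq2, 1 with the clock score and 0 with the side of the library numbers. For the MD they were 10 and 5 with the clock score, for both exposures 9 and 4 with the side of the library numbers, and for PE on the MD 0 and 1 with no minimum fold change. Periportal genes for the MD were 5, with 2 under the clock score and 3 without MD + Veh replicates 4 and 5, and for both exposures 10, with 6 under each covariate. For PE on the CD the periportal count was 1, with 2 under the replicate block and 0 under either covariate or with the 2 groups alone. The cause of these moves was not tested. The settings that leave out several MD + Veh replicates were chosen after seeing the data. Depth limits Rhbg, Lgr5 and Axin2 most, with 32 to 165 counts per library.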
